A study of Chrysanthemum x morifolium with 6 samples.

Results

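The MYC factors described here are the basic helix-loop-helix (bHLH) transcription factors MYC2, MYC3 and MYC4, which activate jasmonate responses in plants. In roots of chrysanthemum (Chrysanthemum x morifolium, strain jinba) given salt water, a pair of MYC4-matched sequence clusters rose, by 1.55-fold and 2.10-fold, while the MYC2-matched cluster and the longest MYC4-matched cluster stood at 0.848 and 0.783 times control, a direction that turned under a scaling over clusters matched to flowering plants. Members were the clusters of the deposited regulator table that the authors placed in the bHLH family and whose best Swiss-Prot match is a flowering plant protein called Transcription factor MYC2, MYC3 or MYC4. There were 7 such clusters among 426 bHLH clusters and 10744 clusters in the table. One was matched to MYC2, 6 to MYC4 and 0 to MYC3, all of Arabidopsis thaliana. Gene names are those of the best match and do not establish orthology.

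RNA came from roots of 1-month-old seedlings in 3 control libraries, from plants watered with purified water, and 3 salt libraries, from plants given salt water at 100 mM. All plants were kept under a 16 h photoperiod and had roots collected 24 h after treatment began. The labels state 3 biological replicates per treatment and do not say how many plants went into each, and the series asks how chrysanthemum roots tolerate salt. Depth, recovered from counts and FPKM, ran from 15925188 to 20127487 fragments in control libraries and from 12767078 to 16114608 in salt libraries. Root regulators of a marker list summed to between 223 and 232 counts-per-million (CPM) of effective library size in control and between 144 and 152 CPM in salt, and 10 of their 35 tested clusters were called lower and 2 higher, beside 29.3% lower and 23.9% higher over all clusters tested. By name, JACKDAW summed to 69.7 to 74.0 CPM in control and 33.4 to 38.6 CPM in salt, while PLT2 had 2.46 to 3.28 and 6.68 to 9.18 CPM. A list of shoot and flower regulators summed to between 4.69 and 5.72 CPM in control and between 2.19 and 2.98 CPM in salt, with 0 of 3 tested clusters higher and 2 lower. In both lists 0 markers were at 0 in every library. Clusters whose Swiss-Prot match is not a flowering plant held 3.99% to 4.03% of the counts of the table in control libraries and 7.80% to 11.5% in salt libraries. The part of these differences in the results below was not tested. In whole roots, fewer cells of a type and less RNA per cell cannot be told apart.

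In Arabidopsis, MYC2, MYC3 and MYC4 bind promoters of jasmonate-responsive genes and are held inactive by JAZ proteins, which belong to the TIFY family. Active jasmonate brings the JAZ proteins to the receptor COI1, they are degraded, and the MYC factors are released. JAZ genes are themselves among the targets of MYC2, which closes a negative feedback loop. A further set of bHLH proteins, bHLH17 (also called AIB), bHLH13 and bHLH3, resembles the MYC factors, competes for the same DNA sites and represses jasmonate responses. Jasmonate restrains root growth and takes part in responses to wounding and salt.

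The 7 clusters differed in how much of a MYC protein they covered. Cluster-71316.176979, of 3161 bases, held the longest coding stretch, 1953 bases, and its best match in the non-redundant protein database (NR) was a MYC2 protein of Artemisia annua, a plant of the same family as chrysanthemum. Cluster-71316.162733 and Cluster-71316.160657, of 1097 and 1078 bases, carried the same coding span, from base 2 to base 607, and had the same Swiss-Prot score, 660. Cluster-71316.124004, of 850 bases, was the cluster named MYC2 by Swiss-Prot. Cluster-71316.162733, Cluster-71316.160657 and Cluster-71316.124004 shared a single NR entry, a partial MYC2 of Chrysanthemum boreale, so the split into MYC2 and MYC4 rests on the Swiss-Prot match and not on NR. All 7 clusters carried the same KEGG name, MYC2. The remaining 3, Cluster-93267.0, Cluster-93267.2 and Cluster-93267.3, of 830 to 862 bases, had their best NR matches in poplar and cotton. Whether the 3 clusters with a shared NR entry stem from separate genes, alleles or fragments of a gene cannot be told from the annotation. The authors' counting could have split reads among near-identical clusters, so the division of reads within the pair is uncertain.

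Of the 7 members, 4 passed the filter on low counts. The 3 poplar- and cotton-matched clusters had between 0 and 8 counts in each library, and the highest value was 0.469 CPM. At this depth a count of 0 allows up to 0.148 to 0.244 CPM, depending on the library (3 counts, counting error only), so a difference between the groups was not detectable for them. The 4 clusters that passed were abundant: by mean CPM, Cluster-71316.160657 ranked 2nd and Cluster-71316.176979 4th among the bHLH clusters, and Cluster-71316.162733 and Cluster-71316.124004 ranked 11th and 18th.

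Cluster-71316.162733, a MYC4-matched cluster, had 28.04, 25.04 and 22.3 CPM in control 1 to 3 and 59.2, 48.7 and 50.4 CPM in salt 1 to 3. The groups did not overlap, and the lowest salt library was well above the highest control library. It rose 2.10-fold, by 1.07 on the log2 scale (SE 0.12; edgeR quasi-likelihood test, Benjamini-Hochberg adjusted p = 7.4e-04). Cluster-71316.160657, its partner with the same coding span, had 57.3, 66.2 and 56.2 CPM in control and 99.1, 93.7 and 85.2 CPM in salt. All salt libraries again lay above all control libraries. It rose 1.55-fold, by 0.63 on the log2 scale (SE 0.09), with an adjusted p of 0.0020 by edgeR.

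Cluster-71316.176979, the long MYC4-matched cluster, had 58.1, 59.9 and 57.2 CPM in control and 45.2, 47.1 and 44.9 CPM in salt. Every salt library was below every control library, and the spread within each group was small. Salt differed from control by -0.35 on the log2 scale (SE 0.06), with an adjusted p of 0.0035 by edgeR. Cluster-71316.124004, the MYC2-matched cluster, had 32.6, 32.9 and 31.95 CPM in control and 27.5, 27.3 and 27.9 CPM in salt. The salt libraries were all lower, and the spread within each group was smaller still. Salt differed from control by -0.24 on the log2 scale (SE 0.07), with an adjusted p of 0.023 by edgeR. The lower call was lost in 7 of 17 alternatives, among them the removal of control 1, control 2, control 3 or salt 2 (edgeR adjusted p = 0.082, 0.081, 0.062 and 0.061), and the sign turned in 2 more.

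**Figure D1:**
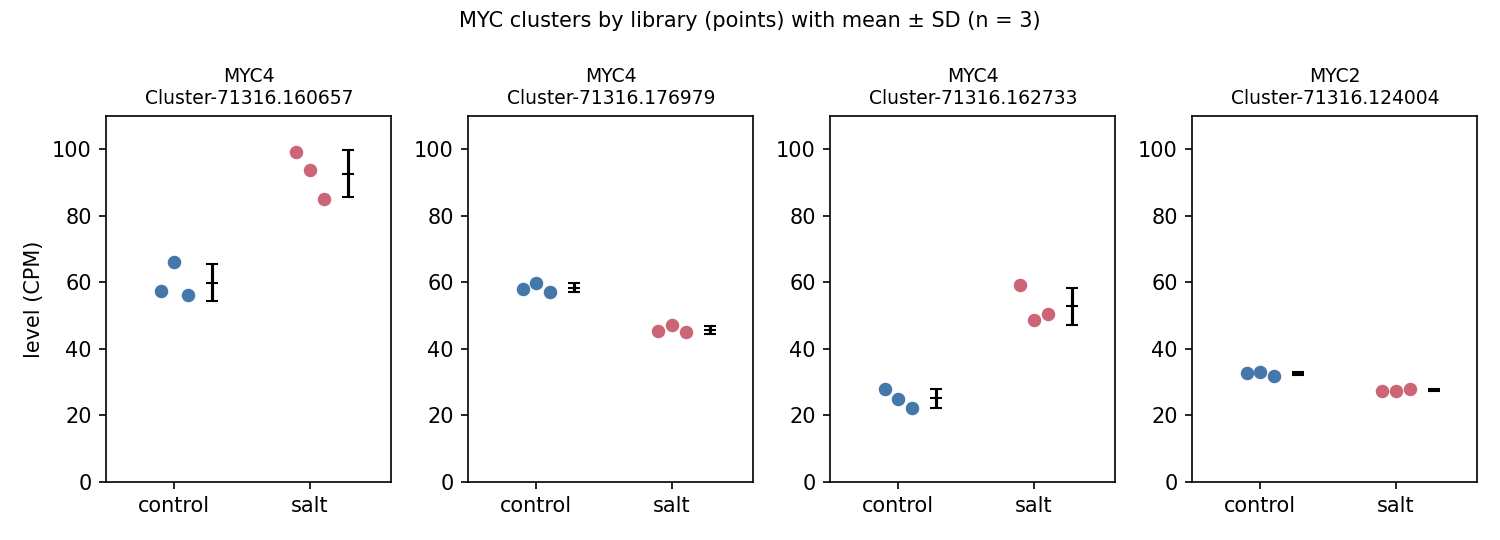
Levels in CPM of the 4 MYC clusters that passed the filter, with points for single libraries and black bars for mean ± SD (n = 3). The pair with the same coding span, at 59.9 and 25.1 CPM in control, stood at 92.6 and 52.8 CPM in salt, while the other 2 clusters were lower in salt on this scale and not under the flowering plant scaling.

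Of the 4 tested members, 2 were thus called higher and 2 lower. Among all 5284 regulator clusters tested, 53.2% were called, 23.9% higher and 29.3% lower, and in 67.2% the groups did not overlap, so a call or a gap between the groups is common in these data. The limma test on deposited FPKM called 2 members higher and 2 lower, beside 22.8% higher and 28.4% lower of 184306 clusters. It used no scaling between libraries beyond depth, so it is no check on the scale. By edgeR, the middle of the log2 changes over tested clusters lay at -0.37. The pair stood 1.43 and 0.99 above that median on the log2 scale, while Cluster-71316.176979 and Cluster-71316.124004 differed from it by 0.01 and 0.13. The scale between the groups was the main uncertainty. With TMM factors taken over clusters matched to flowering plants, the median moved by 0.51, calls over all clusters became 32.9% higher and 17.0% lower, and the log2 fold changes became 1.52 for Cluster-71316.162733, 1.08 for Cluster-71316.160657, 0.10 for Cluster-71316.176979 (edgeR adjusted p = 0.23) and 0.22 for Cluster-71316.124004 (edgeR adjusted p = 0.036). The rise of the pair was called under each of the 5 scalings. The lower level of the other 2 was called under 3 scalings for Cluster-71316.176979 and under 2 for Cluster-71316.124004.

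**Figure D2:**
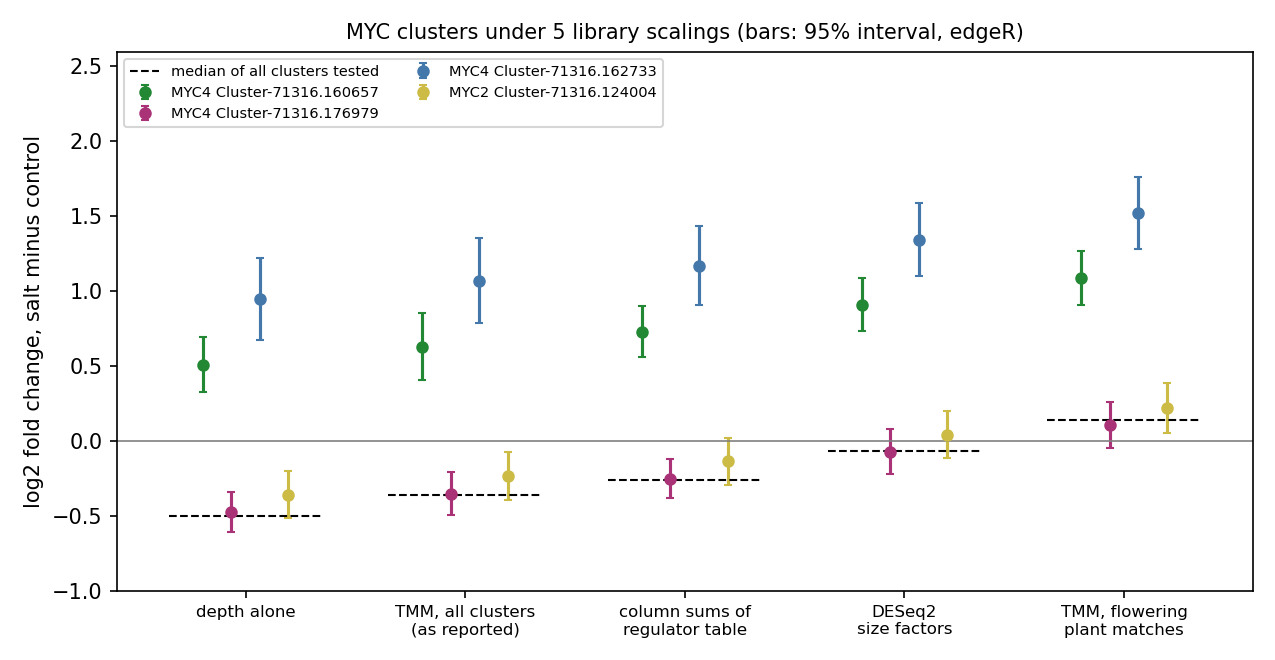
Log2 fold change (salt minus control, edgeR) of the 4 tested MYC clusters under 5 ways of scaling the libraries, with 95% intervals and, as dashed lines, the median of all clusters tested. The pair stayed above 0.5 under each scaling, while the other 2 clusters followed the median, from -0.50 with depth alone to 0.14 with the flowering plant scaling.

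In the authors' deposited table, Cluster-71316.162733 was the single member called UP, with a log2 ratio of 1.14. The authors' deposited table gave Cluster-71316.160657 a log2 ratio of 0.70 and a q value of 4.3e-13 but no call. Every called cluster in that deposited table had an absolute log2 ratio of at least 1.00 and a q value under 0.05. For Cluster-71316.176979 the authors' deposited table gave -0.28 (q = 0.0071), and for Cluster-71316.124004 it gave -0.17 (q = 0.30).

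The division of MYC reads among the clusters does not depend on the scale between libraries. Cluster-71316.162733 held 15.9%, 13.6% and 13.3% of the summed MYC counts in control 1 to 3 and 25.6%, 22.4% and 24.1% in salt 1 to 3. Cluster-71316.160657 held 33.9% ± 1.77 in control and 42.3% ± 1.24 in salt (SD, n = 3). Cluster-71316.176979 went from 33.2% ± 0.81 to 20.9% ± 1.19, and Cluster-71316.124004 from 18.5% ± 0.58 to 12.6% ± 0.73 (SD, n = 3). The groups did not overlap for any of the 4 shares, and a two-sided exact permutation test reached its lower limit for this design, p = 0.1, in every case. The shares are parts of a single total, so a rise in some forces a fall in others. They are therefore not 4 separate results. The pair together went from 48.2% ± 1.36 to 66.3% ± 1.84 of MYC counts (SD, n = 3). Within the pair, Cluster-71316.162733 held 27.5% to 32.9% of the reads in control libraries and 34.2% to 37.4% in salt libraries.

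**Figure D3:**
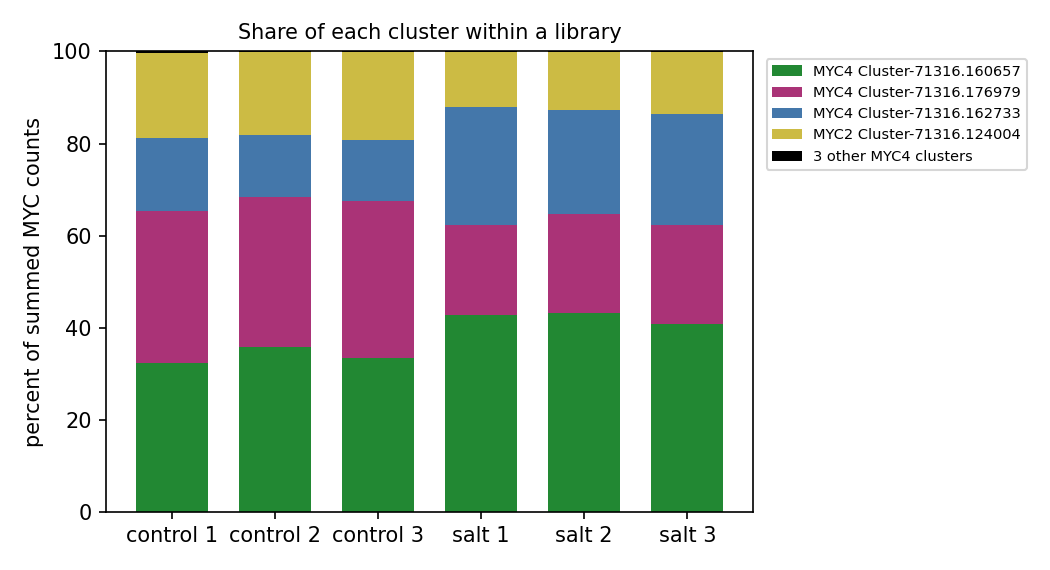
Percent of the summed MYC counts carried by each cluster in each library. The pair in green and blue took between 46.8% and 49.5% in control libraries and between 64.95% and 68.4% in salt libraries, and the 3 poplar- and cotton-matched clusters are too small to see.

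Per length, the order of the clusters also changed. In the deposited FPKM, which divides by cluster length and depth, the control order was Cluster-71316.160657 (74.5 ± 4.29), Cluster-71316.124004 (55.7 ± 1.24), Cluster-71316.162733 (30.6 ± 3.396) and Cluster-71316.176979 (20.9 ± 0.17; SD, n = 3). In salt the FPKM values were 105.9 ± 7.86, 43.3 ± 0.68, 59.0 ± 6.51 and 15.0 ± 0.32 in the same sequence (SD, n = 3). Cluster-71316.162733 was therefore below the MYC2-matched cluster in every control library and above it in every salt library. Neighbours in the order did not overlap in either group.

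Summed by matched name, the MYC4 clusters rose and the MYC2 name was that of its single cluster. MYC4 sums were 144, 151.5 and 136 CPM in control and 204, 190 and 181 CPM in salt. All salt libraries were higher, by 0.41 on the log2 scale (SE 0.07), with an edgeR adjusted p of 4.4e-04 over 2259 entries. An entry is a sum per name and species, or a single cluster where the match gave no gene name. Of these entries, 36.5% were called higher and 37.5% lower. The MYC4 change was 0.29 with depth alone and 0.87 with the flowering plant scaling, and called under both. Over all 7 members, summed levels were 176 ± 8.24 CPM in control and 219 ± 11.5 CPM in salt (SD, n = 3). MYC clusters took 10.9%, 10.9% and 10.7% of the counts of flowering-plant-matched bHLH clusters in control and 13.9%, 14.3% and 14.0% in salt. The groups did not overlap, and the log2 change of this share was 0.38 (exact permutation test, two-sided, p = 0.1, the smallest possible).

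The JAZ repressors, which bind and inhibit MYC factors, stood far higher in salt. Of 56 tested clusters named Protein TIFY, of 89 in the table, 36 rose and 1 fell, or 2 without salt 1, salt 2 or salt 3 (background 23.9% higher and 29.3% lower), with a median log2 fold change of 1.61 against -0.37 over all clusters tested. With no low-count filter 33 of 86 rose and 1 fell, beside 1506 higher and 1403 lower of 10415 over all clusters. The medians were then 1.21 and -0.18. In this list and in those below, several clusters can share a name. Whether they stem from separate genes, alleles or fragments of a gene was not tested, so counts of clusters are not counts of genes. The name Protein TIFY also covers TIFY 8 and TIFY 4B, which are not JAZ proteins in Arabidopsis. Without them 36 of 44 rose and 0 fell and the median was 2.09, a selection made after the values were seen. TIFY 10A (Cluster-71316.160620), the match of Arabidopsis JAZ1, had 222 ± 4.80 CPM in control and 608 ± 71.3 CPM in salt (SD, n = 3). A further TIFY 10A cluster (Cluster-71316.131481) had 24.8 ± 1.75 and 151 ± 27.8 CPM, and TIFY 6B (Cluster-71316.157808), the match of JAZ3, had 79.9 ± 5.71 and 126 ± 3.63 CPM (SD, n = 3). The largest change among the named clusters was in TIFY 5A (Cluster-71316.322966), the match of JAZ8, which rose from 0.173 ± 0.122 to 9.91 ± 1.06 CPM (SD, n = 3; edgeR adjusted p = 2.3e-04). Its control libraries, at 0.176, 0.0493 and 0.293 CPM, were close to 3 counts or below (0.148 to 0.176 CPM), so the size of its change is uncertain.

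Set against TIFY clusters within each library, MYC transcripts therefore made up a smaller part in salt. The ratio of summed MYC to summed TIFY counts was 0.310, 0.307 and 0.300 in control 1 to 3 and 0.123, 0.139 and 0.138 in salt 1 to 3. The control libraries were close to each other and all salt libraries lay at less than 0.15. The log2 change was -1.20 (exact permutation test, two-sided, p = 0.1, the smallest possible), and -1.26 without TIFY 8 and TIFY 4B. A ratio shows unequal change and does not by itself say which side moved. On the reported scale both sums were higher in salt. The TIFY sum went from 577 ± 21.1 to 1652 ± 198 CPM and the MYC sum from 176 ± 8.24 to 219 ± 11.5 CPM (SD, n = 3).

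The bHLH repressors that resemble MYC factors separated into AIB clusters, which rose, and the others, which were not called. All 5 AIB clusters (bHLH17) rose, with log2 fold changes from 1.28 to 1.95. They share a Swiss-Prot name, and whether they stem from separate genes, alleles or fragments of a gene was not tested. AIB Cluster-71316.124237 had 21.5, 22.8 and 22.8 CPM in control and 65.5, 63.5 and 64.8 CPM in salt. This was a 2.89-fold rise with little spread in either group (edgeR adjusted p = 5.2e-05). AIB Cluster-71316.111803 had 15.95, 15.5 and 14.5 CPM in control and 67.1, 57.6 and 52.2 CPM in salt, a 3.85-fold rise (edgeR adjusted p = 9.4e-05). AIB Cluster-71316.139778 went from 13.7 ± 1.97 to 49.3 ± 2.49 CPM and AIB Cluster-71316.111804 from 5.92 ± 0.61 to 19.2 ± 2.69 CPM (SD, n = 3).

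The other jasmonate bHLH clusters were closer to control. BHLH13 (Cluster-71316.135753) had 31.0 ± 2.33 CPM in control and 35.6 ± 2.08 CPM in salt (SD, n = 3; edgeR adjusted p = 0.10). BHLH3 (Cluster-71316.169745) had 25.6 ± 2.96 and 25.9 ± 3.07 CPM (SD, n = 3; edgeR adjusted p = 0.93). Both were called higher under the flowering plant scaling, by 0.65 and 0.47 on the log2 scale (edgeR adjusted p = 8.9e-04 and 0.012). BHLH28 (Cluster-71316.305449), the match of Arabidopsis MYC5, which acts with the other MYC factors, had 2.29 ± 0.37 and 1.68 ± 0.86 CPM (SD, n = 3; edgeR adjusted p = 0.44). It was the single cluster with the KEGG name MYC2 outside the 7 members. In all, 5 of 8 tested clusters of this list rose and 0 fell, beside 23.9% and 29.3% over all clusters, and with the flowering plant scaling 7 rose, beside 32.9%.

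Summed over clusters, AIB went from 59.4 ± 2.80 to 197 ± 13.4 CPM, beside 176 ± 8.24 and 219 ± 11.5 CPM for the MYC members (SD, n = 3). The ratio of MYC to AIB counts was 3.07, 2.94 and 2.89 in control 1 to 3 and 1.09, 1.12 and 1.12 in salt 1 to 3. This ratio was chosen after the values were seen, so it is given as a description with no test. Per length, in deposited FPKM, the MYC sum was 1.88 times the AIB sum in control and 0.809 times in salt. NR gave a name holding MYC2 to 5 clusters of the table outside the members, among them AIB clusters and BHLH28. The MYC and AIB sums therefore rest on the Swiss-Prot names.

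**Figure D4:**
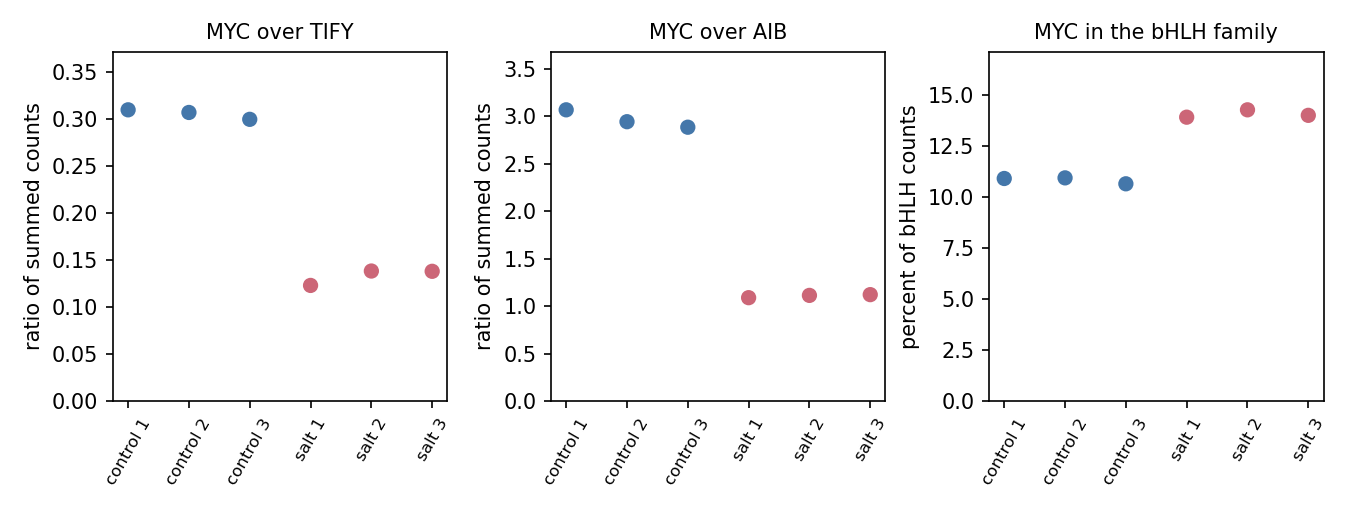
Ratio of summed MYC counts to summed TIFY counts and to summed AIB counts, and MYC counts as percent of flowering-plant-matched bHLH counts, for each library. Control libraries in blue sit near 0.31, 2.97 and 10.8%, and salt libraries in red near 0.133, 1.11 and 14.1%, with no overlap in any of the 3 measures.

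Other regulators linked to MYC factors were counted against the same background, 23.9% higher and 29.3% lower over all clusters, or 32.9% higher and 17.0% lower with the flowering plant scaling. DELLA proteins, which bind JAZ proteins and restrain gibberellin responses, had 16 of 21 tested clusters lower and 1 higher (median -1.33), but 9 of 20 lower and 1 higher with the flowering plant scaling. The count was also 9 without control 3 and 10 without control 2. DELLA GAI1 (Cluster-71316.165637), the most abundant, had 93.2 ± 3.23 and 65.3 ± 6.83 CPM (SD, n = 3). With the flowering plant scaling its change was -0.06 on the log2 scale and not called (edgeR adjusted p = 0.43). GAI1 Cluster-71316.220877 rose from 16.5 ± 1.02 to 21.9 ± 0.58 CPM (SD, n = 3; edgeR adjusted p = 0.0087). GAI (Cluster-71316.176719) fell from 43.9 ± 2.98 to 17.4 ± 1.30 CPM and RGL2 (Cluster-71316.169645) from 19.3 ± 0.69 to 5.39 ± 0.81 CPM (SD, n = 3; edgeR). GAI and RGL2 were still called lower with the flowering plant scaling.

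EIN3, an activator of ethylene responses that opposes MYC2 in Arabidopsis, is listed with the EIL proteins. In the EIN3 and EIL list 5 of 7 tested clusters fell (29.3% over all clusters) and 0 rose, with 3 lower and 1 higher under the flowering plant scaling, and 3 lower with DESeq2 size factors or without control 1. EIN3 Cluster-71316.180821 fell from 192 ± 13.5 to 111.5 ± 3.77 CPM and EIN3 Cluster-71316.149898 from 151 ± 6.72 to 85.6 ± 8.06 CPM (SD, n = 3; edgeR). EIN3 Cluster-71316.149901 fell from 45.4 ± 0.75 to 27.8 ± 0.56 CPM (SD, n = 3; edgeR).

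Regulators placed downstream of jasmonate in Arabidopsis had shares called near those over all clusters (23.9% higher and 29.3% lower), which is no result about them as groups. NAC072 (also called RD26), a NAC factor of drought and abscisic acid responses, had 2 of 6 tested clusters of its list higher and 0 lower, or 1 lower without salt 3. NAC072 Cluster-71316.172221 rose from 49.8 ± 1.02 to 65.6 ± 6.12 CPM and NAC072 Cluster-71316.198473 from 4.95 ± 0.19 to 10.8 ± 1.17 CPM (SD, n = 3; edgeR). NAC072 Cluster-71316.142391 had 5.63, 5.23 and 4.57 CPM in control and 2.56, 1.56 and 0 CPM in salt, and was not called (edgeR adjusted p = 0.14). Among the MYB factors linked to jasmonate, 4 of 14 rose and 4 fell (23.9% and 29.3% over all clusters), with 1 lower under the flowering plant scaling and 2 lower without control 3. MYB108 Cluster-71316.175255 rose from 15.2 ± 0.62 to 23.7 ± 4.83 CPM, MYB108 Cluster-71316.173525 from 11.98 ± 2.20 to 18.4 ± 2.37 CPM and MYB108 Cluster-71316.101260 from 4.94 ± 0.59 to 9.30 ± 1.77 CPM (SD, n = 3; edgeR). MYB108 Cluster-71316.126663 fell from 10.2 ± 0.86 to 5.70 ± 0.70 CPM (SD, n = 3; edgeR). With the flowering plant scaling this fall was -0.37 on the log2 scale and not called (edgeR adjusted p = 0.099), while the MYB108 rises were still called.

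Ethylene response factors that integrate jasmonate and ethylene in Arabidopsis had 1 of 15 tested clusters higher and 5 lower, but 3 of 14 higher and 2 lower with the flowering plant scaling. Over all clusters 23.9% were higher and 29.3% lower, or 32.9% and 17.0% with that scaling, so the lower calls were near the background. Without control 1 or control 3, 3 were lower, and without salt 2, 2 were higher. ERF1A (Cluster-71316.133774) had 17.7 ± 2.65 and 22.7 ± 4.03 CPM (SD, n = 3; edgeR adjusted p = 0.12). ERF1B (Cluster-71316.48218) fell from 18.95 ± 1.42 to 13.4 ± 0.95 CPM (SD, n = 3; edgeR adjusted p = 0.0079), a change of -0.05 on the log2 scale with the flowering plant scaling. ERF1B Cluster-71316.148122 had 11.4, 12.7 and 12.5 CPM in control and 0, 3.12 and 6.26 CPM in salt, so its salt libraries differed widely (edgeR adjusted p = 0.13). EGL1 (named BHLH2, Cluster-71316.84690), a bHLH partner of MYB factors in epidermal cell fate and pigment synthesis, fell from 2.36 ± 0.09 to 0.239 ± 0.02 CPM (SD, n = 3; edgeR adjusted p = 6.4e-04). Its salt libraries, at 0.213, 0.260 and 0.244 CPM, were close to 3 counts (0.195 to 0.244 CPM), so the size of its change is uncertain. A list of co-repressors (Ninja-family, TOPLESS, Topless-related and AFP proteins) had 4 clusters in the table and 0 passed the filter. For the receptor COI1 and Mediator subunit 25, 0 clusters matched.

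**Figure D5:**
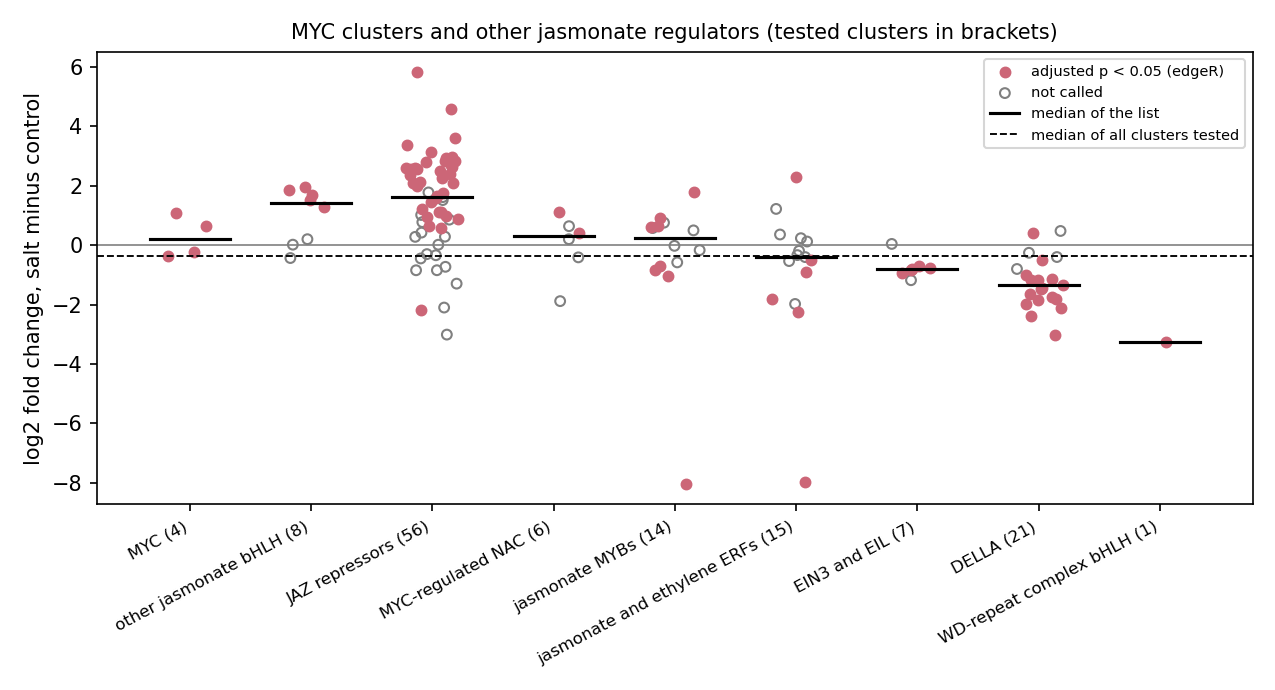
Log2 fold change (salt minus control) of each tested cluster of the MYC members and of 8 lists of jasmonate-linked regulators, with filled points for an edgeR adjusted p under 0.05 and black bars for the list median. The medians of the TIFY list (1.61) and the other jasmonate bHLH list (1.41) lie above the 4 MYC clusters. That of the DELLA list (-1.33) lies below the median of all clusters tested (-0.37, dashed). Single clusters of the TIFY, other jasmonate bHLH and DELLA lists lie on either side of the dashed line.

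The regulators whose levels most resembled those of the MYC2-matched cluster depended on the scale, like its own direction. Of 1579 clusters with a mean of at least 5 CPM, 594 had a Pearson correlation over 0.9 with it across the 6 libraries, which fall into the 2 treatment groups. The 5 most alike (r = 0.998 to 0.999) were IAA9 (Cluster-71316.161819), a MYB cluster with no Swiss-Prot name (Cluster-71316.165609), ARR12 (Cluster-71316.175223), IDM1 (Cluster-71316.137359) and RAP2-12 (Cluster-71316.121204). With the flowering plant scaling, where the MYC2-matched cluster was higher in salt, the correlation of these 5 with it was -0.888 to -0.836, and with DESeq2 size factors -0.468 to -0.390, so the likeness held for neither. The number over 0.9 was then 377 and 12. With column sums and depth alone the correlation of the 5 stayed between 0.946 and 0.996, but 0 of them were among the 5 most alike. On the reported scale IAA9, a repressor of auxin responses, went from 216 ± 11.4 to 104 ± 3.18 CPM, beside 32.5 ± 0.50 and 27.6 ± 0.27 CPM in the MYC2-matched cluster (SD, n = 3).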

How the data were processed

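Per the labels' protocols, total RNA from roots went into Illumina TruSeq libraries. Bowtie2 2.0.6 and TopHat2 2.0.12 are listed, with no role, per the submitters' processing notes. For the assembler and the counter, the tool is not given in the sources used here. The authors deposited expected counts per cluster for 10744 regulator clusters (49.3% of values not whole) and FPKM for these and for all 469059 clusters. The deposited score is that of the database match, and the deposited log2 ratio and q value are the authors' own comparison. No cluster sequence was used here.

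Depth was recovered as the slope of count over FPKM against cluster length (counts of at least 200, lengths of at least 1000 bases). Expected counts were rounded and all clusters tested with edgeR 4.0.16 (R 4.3.3; glmQLFit, filterByExpr), at an adjusted p under 0.05. Library sizes were depth times TMM factors over the FPKM of all clusters, and the SE is implied by the F statistic. Alternatives used other scalings and filters, DESeq2 1.42.0, limma 3.58.1 on log2(FPKM + 1), a replicate block and left-out libraries. Flowering plants were 32 genera listed by hand. The fit was tested on simulated data with few changed clusters, balanced between higher and lower, and with known library sizes. Median estimates lay close to the known changes, false calls were rare, and a minority of the changed clusters was called, so a cluster with no call may still differ. Data with as many changed clusters as here, or with an uncertain scale, were not simulated, so these outcomes do not cover them. The MYC to TIFY ratio and the shares were tested by exact permutation of libraries.

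Members and lists were chosen with earlier results of these data known. Values in each library are given for the tested members, and in each list the 3 most abundant tested clusters and the called cluster with the largest change among those of at least 5 CPM are named, with further jasmonate bHLH clusters named after their values were seen. Likeness is Pearson's r of log2(CPM + 1), with the other scalings added after the values were seen. CPM is counts-per-million of effective library size. Where plants were pooled is not stated, so p-values measure the spread between libraries. Of the columns of values, 0 lacked a matching sample.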

Additional observations from a re-analysis of the deposited data

How the results depend on the processing

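Of 111 alternatives of the main results, 96 kept their direction and call, or a count within 1.5 times. This tally includes alternatives that could hardly differ. The MYC to TIFY ratio and the MYC share of bHLH counts had no call to keep, since their permutation p cannot fall under 0.1. A wider rule taking every MYC number gave the same 7 members, so its counts were fixed in advance. The 2 higher MYC calls held in each alternative. The lower calls, 2 as reported, became 0 with DESeq2 size factors, 0 with the flowering plant scaling, and 1 with column sums, with no low-count filter and with the replicate block, and leaving out 1 library gave 1 to 2. Cluster-71316.176979 turned to 0.10 with the flowering plant scaling and was -0.07 with DESeq2 size factors. Cluster-71316.124004, and with it the MYC2 name, turned to 0.0403 with DESeq2 size factors and to 0.22 with the flowering plant scaling. For the MYC2 name the change was -0.14 with column sums, where the call was lost, and between -0.25 and -0.23 without single libraries, where it was lost without control 1 (edgeR adjusted p = 0.051). Calls lower over all pathway lists, 32 as reported, became 17 with the flowering plant scaling and 21 to 30 without single libraries, with 21 without control 3. The MYC to TIFY change stayed between -1.23 and -1.14 without single libraries. Same-numbered libraries deviated together at r = 0.020 to 0.043 across clusters, so numbers were not taken as pairs, although each library correlated best with its own number. With the replicate block, the lower calls of the lists were 22, those of the DELLA list 10 instead of 16, and that of Cluster-71316.124004 was lost (edgeR adjusted p = 0.080).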
